A study of Homo sapiens with 6 samples.

Results

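The genes described here encode the eukaryotic translation initiation factors (EIF1 to EIF6) and elongation factors (EEF) of human cells. Members were all protein-coding genes whose symbol starts with EIF1, EIF2, EIF3, EIF4, EIF5, EIF6 or EEF, leaving out the EIF2AK kinases and all pseudogenes, which gave 64 of the 30727 genes measured. The cells were PANC-1, an established human line of pancreatic duct carcinoma, and their polyadenylated RNA was sequenced in 3 libraries after siRNA against SUV420H2 (the knockdown) and in 3 control libraries. SUV420H2 is the older name of KMT5C, a histone H4 methyltransferase. Which siRNA sequences and which control were used, and how long after transfection RNA was taken, the sources used here do not say. The labels do not tie the libraries to separate cultures, and p-values then reflect only how these samples scatter, which may be technical.

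Translation initiation is the step at which the small ribosomal subunit, loaded with initiator tRNA by eIF2, is brought to the capped end of an mRNA by the eIF4 factors and the eIF3 scaffold and scans to a start codon. The exchange factor eIF2B recharges eIF2, and 4E-binding proteins (EIF4EBP genes) block the cap-binding protein eIF4E when mTOR is inactive. The elongation factors eEF1A and eEF2 then deliver aminoacyl-tRNAs and move the ribosome along the mRNA, and the kinase eEF2K slows this by phosphorylating eEF2. Tumour cells are known for high demand on this machinery, much of it set by phosphorylation, which RNA sequencing does not read.

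The libraries held 20863594 to 38022772 counted reads, of which the 64 members took 1.63% to 1.68% in the controls and 1.59% in each knockdown library. KMT5C had 3.33, 2.52 and 4.35 RPKM (reads per kilobase of gene, scaled to library size) in the controls and 2.12, 2.15 and 2.06 in the knockdown, a log2 fold change of −0.72 (SE 0.163, edgeR adjusted p = 0.00227). All 6 duct epithelium and PANC-1 markers (KRT7, KRT8, KRT18, KRT19, EPCAM and VIM) were above 1 RPKM, and their sum was 2938 to 3407 RPKM in the controls and 4245 to 4419 in the knockdown. They did not move together: KRT7, KRT8, KRT18 and EPCAM were higher in the knockdown without overlap (KRT8 at 356 to 428 and 1111 to 1138 RPKM), while KRT19 (547 to 694 and 479 to 506) and VIM (1547 to 1728 and 1146 to 1185) were lower without overlap. The extraction text of the labels speaks of brain cells, but the 4 astrocyte markers summed to at most 0.107 RPKM in any library, the 5 microglia and leukocyte markers to at most 0.248 and the 5 fibroblast and endothelial markers to at most 0.106. The 5 neuron markers summed to 2.68 to 3.14 RPKM in the controls and 2.04 to 2.09 in the knockdown, mostly from SYT1 and GAD1. SYT1 (1.33 to 1.56 and 0.320 to 0.330 RPKM) and GAD1 (1.118 to 1.135 and 0.928 to 1.082) were lower in the knockdown, each without overlap. SNAP25 (0.0926 to 0.186 and 0.223 to 0.363) and SLC17A7 (0.0653 to 0.189 and 0.318 to 0.404) were higher, each without overlap, while RBFOX3 overlapped. The part of these marker differences in the results was not tested. Control replicate 3 stood apart: it was the control farthest from the median for 46 of the 61 members that could be tested.

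Changes among the translation factors were mostly small, with EIF4G3, EEF2KMT, EIF2S3, EIF2D, EIF4EBP2 and EEF2K outside 0.5 on the log2 scale. Of the 64 members, 61 passed the filter on low counts, and of these 14 rose, 22 fell and 25 did not pass the threshold (adjusted p of 0.05, edgeR's quasi-likelihood test over 15190 genes). The 36 called members are 59.0% of those tested, against 67.3% of all genes tested (33.1% higher and 34.2% lower). In bulk RNA, fewer cells that express a gene and less of its RNA per cell cannot be told apart. Libraries of the groups did not overlap for 35 of the 61 members (57.4%), against 71.3% of all genes. The median log2 fold change of the members was −0.05, beside −0.01 for all genes, while the median absolute value was 0.19, beside 0.35. Fold changes under 0.5 on the log2 scale were found for 55 of the 61 members (90.2%), against 63.3% of all genes. At least 2-fold changes were found for EIF4G3, which fell, and EIF4EBP2, which rose, or 2 of 61 members against 14.0% of all genes. Tested against a 1.5-fold change, 4 members passed (EIF4G3, EIF4EBP2, EIF2S3 and EEF2KMT), where 19.7% of all genes did. Without control replicate 3, 41 members were called, 15 higher and 26 lower. The share of all genes called without that library is not given here, so this count has no background beside it. Over all genes tested, control replicate 3 also lay farthest from the other controls. Its median absolute deviation was 0.139 on the log2 scale, beside 0.0770 and 0.0954 for control replicates 1 and 2.

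**Figure D1:**
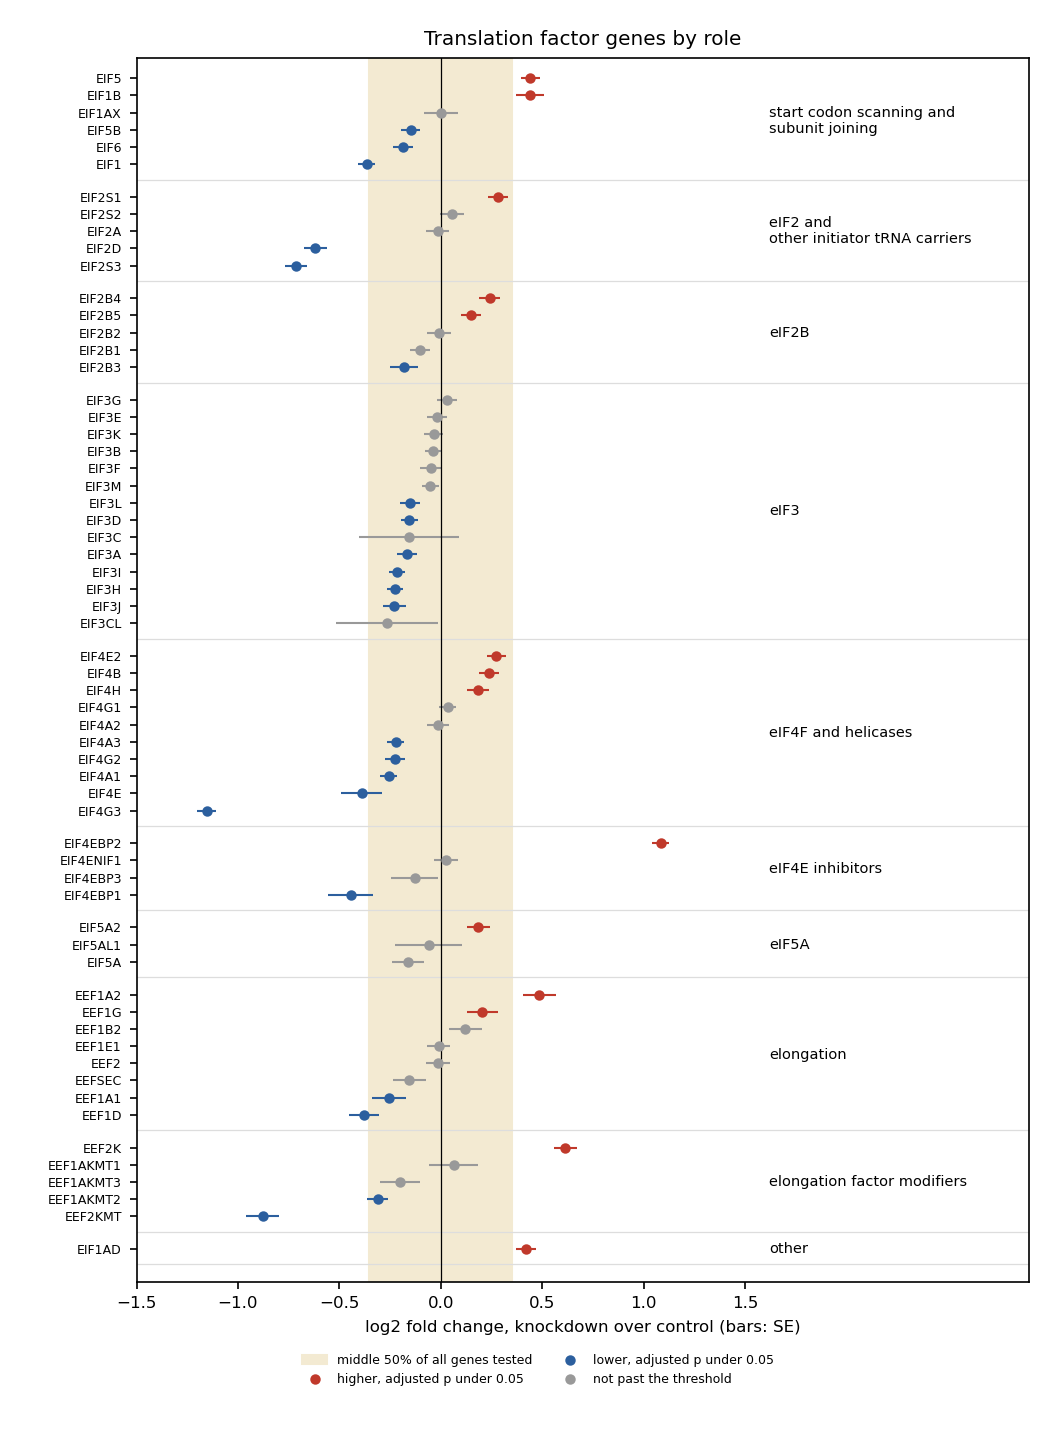
Log2 fold change (knockdown over control, horizontal axis) of the 61 tested members, grouped by role, with the standard error as a bar and the middle 50% of all genes tested shaded. EIF4EBP2 (1.08) lies farthest to the right and EIF4G3 (−1.15) farthest to the left, while all 14 eIF3 genes lie between −0.26 and 0.03.

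The mRNAs of several translation factors are known to begin with a C followed by a run of pyrimidines, the terminal oligopyrimidine or TOP start, through which mTOR controls their translation. RefSeq start windows (GRCh38.p14) were at hand for 51 members. In 12 of them (23.5%) an annotated transcript starts with a C followed directly by at least 4 bases that are each C or T, read on the transcribed strand, beside 6.24% of the 15843 protein-coding genes in that table and 7.58% of those tested. The starts of 6 such members are shown here because similar letters went with different changes in RNA level. Each has 10 bases before and 20 bases from the annotated start on, 5′ to 3′, with the pyrimidine run in capitals.
EIF2S3: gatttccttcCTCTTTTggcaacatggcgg
EIF2D: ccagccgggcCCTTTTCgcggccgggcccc
EIF3D: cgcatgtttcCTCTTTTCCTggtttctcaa
EIF3K: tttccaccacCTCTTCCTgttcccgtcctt
EEF2: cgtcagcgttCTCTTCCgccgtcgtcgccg
EIF4B: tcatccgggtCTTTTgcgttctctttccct

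These windows lie at chrX:24054946-24054975 (plus strand) for EIF2S3, chr1:206612446-206612475 (minus) for EIF2D, chr22:36529147-36529176 (minus) for EIF3D, chr19:38619178-38619207 (plus) for EIF3K, chr19:3985444-3985473 (minus) for EEF2 and chr12:53006446-53006475 (plus) for EIF4B. EIF2S3, EIF2D and EIF3D fell, EIF4B rose, and EIF3K and EEF2 did not pass the threshold (their values are given below with their complexes). Of all 12 members with such a start, 1 rose, 4 fell and 7 did not pass, with a median log2 fold change of −0.04. These 5 calls are 41.7% of the 12, beside 70.9% called among all tested genes with such a start and 70.2% among those without. The 39 members without one had a median of −0.05 over the 36 tested, 12 higher and 12 lower (66.7% called). Over all genes tested, the median was −0.04 for the 808 with such a start and −0.01 for the 9844 without. Of 10 members known from the literature as TOP mRNAs (EEF1A1, EEF1B2, EEF1D, EEF1G, EEF2, EIF3E, EIF3F, EIF3H, EIF3L and EIF4B), 2 rose, 4 fell and 4 did not pass, with a median of −0.03. The share called was below the 67.3% of all genes tested. The calls of EEF1A1, EEF1G and EIF3L among them were lost when certain single libraries were left out, as given below. EEF1G had no such start in its windows, and EEF1D, EIF3E, EIF3H and EIF3L were not among the 51 members with windows. The hexamer CACGTG, the same on both strands and the core site of MYC and related factors, stood in the 300-base start windows of 13 of the 51 members (25.5%) and of 12.7% of tested protein-coding genes. Of these 13 members 5 rose and 3 fell (61.5% called), with a median of −0.03, while 443 of all 1350 tested genes with the hexamer rose and 527 fell (71.9% called).

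**Figure D2:**
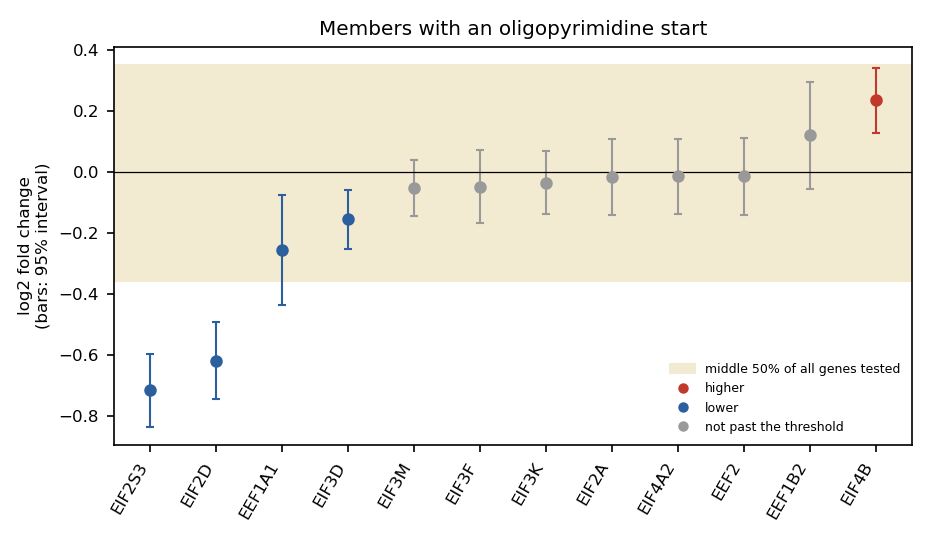
Log2 fold change of the 12 members whose annotated transcript starts with a C and at least 4 further pyrimidines, with 95% intervals and the middle 50% of all genes tested shaded. EIF2S3 (−0.71) and EIF2D (−0.62) lie below the shaded band, while the other 10 lie within it.

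Among the factors of scanning and subunit joining, EIF5 and EIF1B rose and EIF1, EIF6 and EIF5B fell. EIF5, which triggers GTP hydrolysis by eIF2 at the start codon, had 54.5, 55.6 and 49.6 RPKM in the controls and 72.5, 72.5 and 74.3 in the knockdown. All 3 knockdown libraries lay above all controls, and the log2 fold change was 0.44 (SE 0.0458, adjusted p = 7.03e-06). EIF1, which keeps scanning accurate, had 444, 448 and 431 RPKM in the controls and 358, 331 and 350 in the knockdown, with no overlap (−0.37, SE 0.0420, adjusted p = 1.59e-05). RefSeq names 7 pseudogenes of EIF1, and reads shared with them were not counted. Its close relative EIF1B went the other way, from 23.6, 23.6 and 20.0 RPKM to 31.0, 30.0 and 31.3 (0.44, SE 0.0698, adjusted p = 1.92e-04). EIF6, which holds free large subunits apart from small ones, fell by 0.19 (adjusted p = 0.00651), and EIF5B, the GTPase of subunit joining, fell by 0.15 (adjusted p = 0.0149) on the log2 scale. The call of EIF5B was lost without control replicate 1, control replicate 2 or knockdown replicate 1 (adjusted p = 0.0624, 0.0796 and 0.0914). EIF1AX, the partner of EIF1 in scanning, stood at −0.00 (95% interval −0.19 to 0.18). EIF1AY, its relative on the Y chromosome, had no read in any library, which allows up to 3 reads in each.

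The subunits of eIF2 moved apart. EIF2S3, the gamma subunit that binds GTP and initiator tRNA (chromosome X, 24054956 to 24078810), had 42.3, 43.7 and 38.0 RPKM in the controls and 24.6, 25.4 and 26.4 in the knockdown. Every knockdown library was below every control, and the log2 fold change was −0.71 (SE 0.0545, 1.64-fold lower, adjusted p = 5.95e-07). EIF2S1, the alpha subunit that stress kinases phosphorylate (chromosome 14, 67360328 to 67386516), rose from 29.6, 28.3 and 26.0 RPKM to 34.6, 34.0 and 34.7 (0.28, SE 0.0491, adjusted p = 3.71e-04). In RPKM, EIF2S3 was thus above EIF2S1 in all 3 controls and below it in all 3 knockdown libraries. EIF2S2, the beta subunit, had 28.0, 30.9 and 27.3 RPKM in the controls and 28.3, 32.1 and 30.2 in the knockdown, and did not pass (0.05, 95% interval −0.08 to 0.19). RefSeq names 7 pseudogenes of EIF2S2 and 2 of EIF2S3, and reads shared with them were not counted.

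The 2 other carriers of initiator tRNA differed from each other. EIF2D, which can deliver tRNA without GTP, had 21.1, 21.9 and 23.0 RPKM in the controls and 14.6, 14.1 and 14.9 in the knockdown (−0.62, SE 0.0571, 1.53-fold lower, adjusted p = 2.72e-06). EIF2A had 31.1, 33.1 and 27.7 RPKM in the controls and 30.3, 30.8 and 30.9 in the knockdown (−0.01, adjusted p = 0.830), but passed at −0.08 without control replicate 3 (adjusted p = 0.0383).

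Of the 5 genes of the exchange factor eIF2B, 2 rose, 1 fell and 2 did not pass, all by small amounts. The share called was below the 67.3% of all genes tested. EIF2B4, a regulatory subunit, rose from 20.2, 20.5 and 21.3 RPKM to 25.5, 24.2 and 24.4 (0.24, SE 0.0519, adjusted p = 0.00172). EIF2B5, the catalytic subunit, rose from 25.6, 26.4 and 24.9 RPKM to 29.9, 27.3 and 28.8 (0.15, SE 0.0488, adjusted p = 0.0192). EIF2B3, its partner in the catalytic part, fell by 0.18 (adjusted p = 0.0336) with overlapping groups. EIF2B2 (−0.01) and EIF2B1 (−0.10) did not pass. The smaller calls lay near the threshold and were lost when any of several single libraries was left out. EIF2B5 did not pass without control replicate 1, knockdown replicate 1 or knockdown replicate 3 (adjusted p = 0.0581, 0.112 and 0.0652), with values of 0.15, 0.12 and 0.15. EIF2B3 did not pass without control replicate 1, control replicate 2, knockdown replicate 2 or knockdown replicate 3 (0.130, 0.104, 0.141 and 0.101), with values of −0.15, −0.15, −0.14 and −0.17. EIF2B1 passed at −0.11 without control replicate 3 (0.0139). The numbers called in this group therefore moved from 3 to 1 without control replicate 1 or knockdown replicate 3.

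The eIF3 complex, the largest initiation factor and the platform between mRNA and small subunit, showed a narrow spread of changes. Of its 14 genes, all were tested, none rose, 6 fell and 8 did not pass (42.9% called, beside 67.3% of all genes). The log2 fold changes had a median of −0.15 and an SD of 0.0944, beside 0.812 for all genes tested. That SD was 0.342 over all tested members, 0.174 over the eIF2B genes and 0.179 over the eIF5A genes. EIF3H, a regulatory subunit, had 186, 187 and 174 RPKM in the controls and 156, 158 and 159 in the knockdown (−0.22, SE 0.0406, adjusted p = 5.02e-04). EIF3I had 224, 231 and 224 RPKM in the controls and 203, 190 and 198 in the knockdown (−0.22, SE 0.0410, adjusted p = 7.06e-04). In both genes every knockdown library was below every control. EIF3J, a loosely bound subunit, fell by 0.23, EIF3A, the largest subunit, by 0.17, EIF3D, which can bind the cap of some mRNAs, by 0.15, and EIF3L by 0.15. EIF3K had the highest level of all members per length, at 1144, 1160 and 1252 RPKM in the controls and 1166, 1158 and 1192 in the knockdown, and did not pass (−0.03, 95% interval −0.14 to 0.07). EIF3B (−0.04), EIF3E (−0.02), EIF3F (−0.05), EIF3G (0.03) and EIF3M (−0.05) did not pass either.

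Within eIF3, the calls of the 3 weakest falls were lost when certain single libraries were left out, at values of −0.15 to −0.12. EIF3A did not pass without control replicate 2, knockdown replicate 1 or knockdown replicate 3 (adjusted p = 0.0518, 0.0544 and 0.0524), EIF3D without control replicate 1 (0.0655), and EIF3L without control replicate 1, control replicate 2 or knockdown replicate 2 (0.0971, 0.0857 and 0.0854). Of the exonic bases of EIF3L 51.8% are shared with other genes, ANKRD54 among them. EIF3M passed at −0.08 without control replicate 3 (0.0110). EIF3C and EIF3CL, near-identical copies on chromosome 16, had 15 to 33 and 38 to 55 uniquely aligned reads per library, far below the other subunits. Reads shared by both copies were not counted, so their values (−0.16 and −0.26, not passed) are uncertain and do not give the level of this subunit.

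The cap-binding complex eIF4F held the largest fall of all members. EIF4G3, a scaffold that joins the cap-binding protein to the helicase (chromosome 1, 20806292 to 21176897), had 33.8, 34.8 and 31.1 RPKM in the controls and 15.03, 15.4 and 14.9 in the knockdown. The groups were far apart, with a log2 fold change of −1.15 (SE 0.0471, 2.22-fold lower, adjusted p = 5.31e-09). The main scaffold, EIF4G1, had 197, 204 and 207 RPKM in the controls and 209, 217 and 204 in the knockdown, with overlap between the groups (0.03, 95% interval −0.06 to 0.13). EIF4G2, a scaffold that lacks the cap-binding arm, had 1056, 1080 and 945 RPKM in the controls and 888, 872 and 905 in the knockdown (−0.23, adjusted p = 0.00197).

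Of the helicases, EIF4A1, which unwinds leaders of mRNAs, had 176, 176 and 168 RPKM in the controls and 145, 144 and 152 in the knockdown (−0.26, SE 0.0402, adjusted p = 1.74e-04). Of its exonic bases 48.6% are shared with other annotated genes, among them the read-through gene SENP3-EIF4A1 and small nucleolar RNAs, and whether reads were counted by strand is unknown. EIF4A3, a part of the exon junction complex, fell by 0.22 (adjusted p = 6.93e-04). EIF4A2 had 94.3, 93.0 and 81.8 RPKM in the controls and 86.4, 94.2 and 89.2 in the knockdown and did not pass (−0.01), but passed at −0.08 without control replicate 3 (adjusted p = 0.0480). The helicase cofactors rose, EIF4B by 0.24 (adjusted p = 0.00124) and EIF4H by 0.19 (0.00997), the latter not without knockdown replicate 1 (0.0524).

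The cap-binding proteins themselves went in opposite directions. EIF4E had 1.77, 1.69 and 1.41 RPKM in the controls and 1.21, 1.22 and 1.33 in the knockdown, from 180 to 252 reads per library (−0.39, SE 0.10, adjusted p = 0.00502). It has 5 named pseudogenes in RefSeq, so reads that align to more than 1 place may be missing from this value. EIF4E2, a cap-binding protein that represses rather than drives translation, had 28.3, 27.6 and 25.3 RPKM in the controls and 32.6, 32.6 and 34.1 in the knockdown (0.27, SE 0.0478, adjusted p = 3.91e-04). Of the EIF4E2 gene, 24.2% of the exonic bases are shared with other genes, TIGD1 among them. EIF4E3, with 2 to 10 reads per library, and EIF4E1B, with 0 to 2, did not pass the filter on low counts.

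The inhibitors of eIF4E changed their order in RPKM. EIF4EBP2 (chromosome 10, 70404145 to 70428618) had 20.7, 20.9 and 19.2 RPKM in the controls and 43.0, 43.0 and 44.3 in the knockdown. This was the largest rise of all members, with a log2 fold change of 1.08 (SE 0.0426, 2.12-fold, adjusted p = 4.56e-09). EIF4EBP1 had 39.1, 32.3 and 46.9 RPKM in the controls and 30.6, 29.8 and 27.9 in the knockdown, a fall without overlap, although the controls had an SD of 7.28 RPKM (−0.44, SE 0.113, adjusted p = 0.00480). In RPKM, EIF4EBP1 was thus above EIF4EBP2 in every control and below it in every knockdown library. In scaled CPM (reads per library size without gene length), EIF4EBP2 was above EIF4EBP1 in every library, at 160, 161 and 151 against 34.6, 28.5 and 42.0 in the controls. RefSeq names 2 pseudogenes of EIF4EBP1 and 3 of EIF4EBP2, and reads shared with them were not counted. EIF4EBP3 did not pass (−0.13), and 73.4% of its exonic bases are shared with the read-through gene ANKHD1-EIF4EBP3. EIF4ENIF1, which carries eIF4E into the nucleus, did not pass (0.03).

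**Figure D3:**
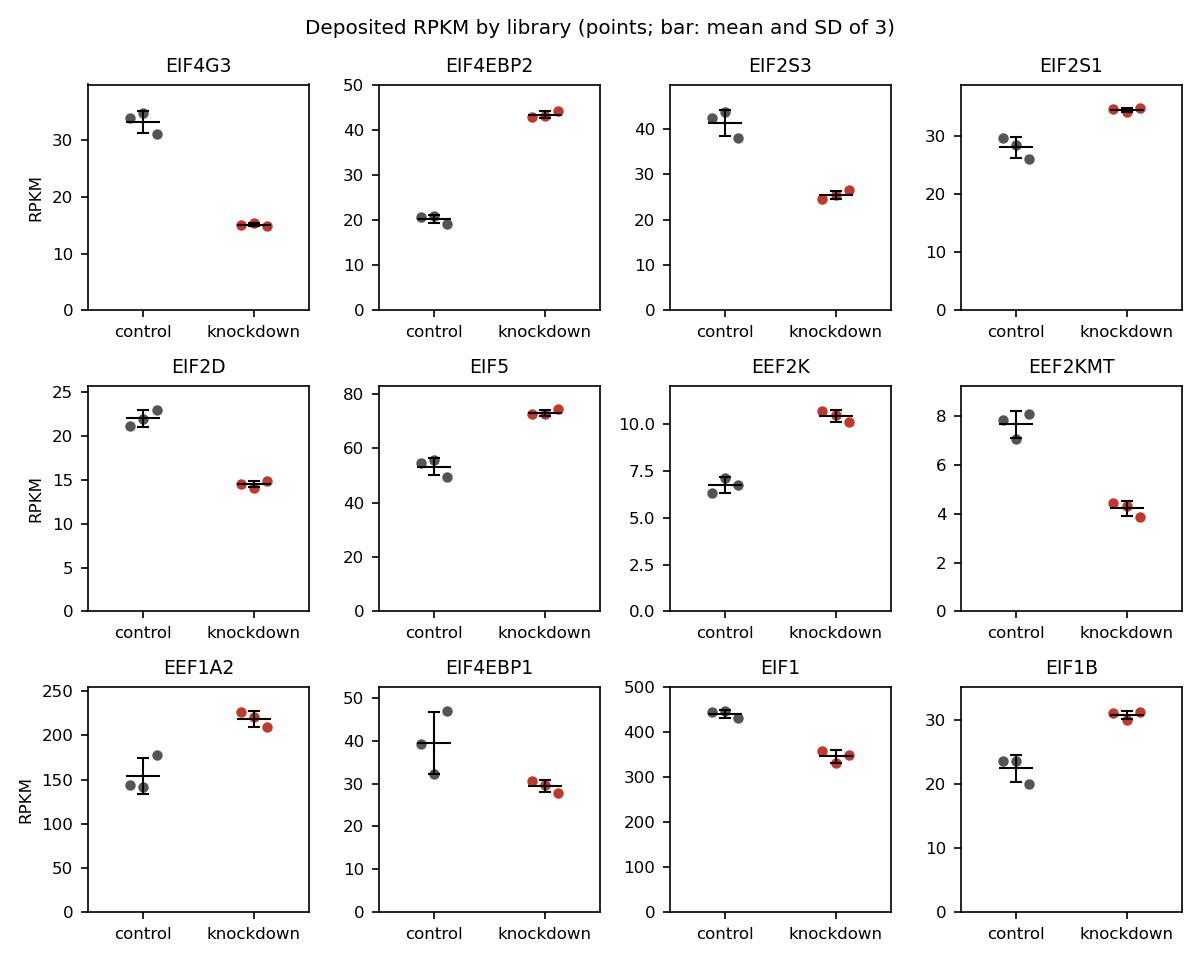
Deposited RPKM of 12 members in each of the 3 control and 3 knockdown libraries (points), with the mean and SD as bars and every vertical axis starting at 0. EIF4G3 lies at 31.1 to 34.8 in the controls and 14.9 to 15.4 in the knockdown, and EIF4EBP2 at 19.2 to 20.9 and 43.0 to 44.3.

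The eIF5A genes encode a factor that carries the amino acid hypusine and helps the ribosome through difficult stretches. EIF5A had 98.8, 92.4 and 117 RPKM in the controls and 96.7, 89.5 and 93.3 in the knockdown, with overlap, and did not pass (−0.16, 95% interval −0.34 to 0.01). It passed at −0.23 without control replicate 2 (adjusted p = 0.00869), but stood at −0.05 and did not pass without control replicate 3. Its relative EIF5A2 rose from 13.01, 12.7 and 11.1 RPKM to 13.8, 14.4 and 14.1 (0.19, SE 0.0581, adjusted p = 0.0148). This call was lost without knockdown replicate 2 (adjusted p = 0.0616), and the value fell to 0.12 without control replicate 3. EIF5AL1, a copy of EIF5A that lacks introns, did not pass (−0.06).

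Of the 8 elongation factors, 2 rose, 2 fell and 4 did not pass. The share called was thus below the 67.3% of all genes tested. EEF1A2, the form of the tRNA-delivering factor typical of muscle and nerve, had 144, 141 and 178 RPKM in the controls and 226, 221 and 209 in the knockdown, with no overlap (0.48, SE 0.0809, 1.40-fold, adjusted p = 2.79e-04). EEF1D, an exchange factor for eEF1A, had 63.3, 61.8 and 76.1 RPKM in the controls and 53.8, 51.3 and 51.9 in the knockdown (−0.38, SE 0.0739, adjusted p = 8.89e-04). Of its exonic bases 34% are shared with other genes, TIGD5 among them. The partners of EEF1D in the exchange complex did not follow it: EEF1G was at 0.21 (adjusted p = 0.0321, with overlap) and EEF1B2 at 0.12 (0.197). The call of EEF1G was lost without control replicate 1, control replicate 2, knockdown replicate 2 or knockdown replicate 3 (0.109, 0.0656, 0.136 and 0.0603), and 99.9% of its exonic bases are shared with another annotated gene, AP002990.1. EEF1B2 passed at 0.22 without control replicate 3 (adjusted p = 0.00120). Without knockdown replicate 2 only 2 of the 8 elongation factors were called, in place of 4.

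EEF2, which moves the ribosome by 1 codon, was among the most abundant members, with 478, 466 and 533 RPKM in the controls and 498, 509 and 475 in the knockdown. It did not pass (−0.01, 95% interval −0.14 to 0.11). EEF1E1, a part of the tRNA synthetase complex, stood at −0.01. EEFSEC, which inserts selenocysteine, stood at −0.15, and passed at −0.22 without control replicate 2 (adjusted p = 0.0253), but stood at −0.07 and did not pass without control replicate 3. EEF1A1 had 7.75, 8.52 and 7.31 RPKM in the controls and 7.13, 5.92 and 6.87 in the knockdown (−0.26, adjusted p = 0.0170), a call lost without control replicate 2 or knockdown replicate 2 (0.0627 and 0.0763). RefSeq names 50 pseudogenes of EEF1A1, reads shared with them are not counted, and the value is therefore no measure of the abundance of this mRNA.

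The enzymes that modify the elongation factors held a pair of larger changes in opposite directions. EEF2K, the kinase that inhibits eEF2 (chromosome 16, 22206278 to 22288738), rose from 6.32, 7.15 and 6.77 RPKM to 10.7, 10.5 and 10.1 (0.61, SE 0.0553, 1.53-fold, adjusted p = 2.23e-06). EEF2KMT, which methylates eEF2 (chromosome 16, 5084284 to 5097795), had 7.87, 7.06 and 8.09 RPKM in the controls and 4.47, 4.32 and 3.89 in the knockdown (−0.88, SE 0.0825, 1.84-fold lower, adjusted p = 3.13e-06). Neither gene had overlapping groups, and 29.3% of the exonic bases of EEF2KMT are shared with its neighbour ALG1. Of the methyltransferases of eEF1A, EEF1AKMT2 fell by 0.31 (adjusted p = 3.03e-04), while EEF1AKMT1 (0.06) and EEF1AKMT3 (−0.20) did not pass. EEF1AKMT3 passed at −0.29 without knockdown replicate 1 (adjusted p = 0.0379). EIF1AD, matched by its symbol and outside the roles above, rose from 16.5, 17.7 and 16.7 RPKM to 22.8, 22.8 and 23.2 (0.42, SE 0.0474, adjusted p = 1.35e-05).

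The share that each of 7 paralogs took of its pair was compared per library in RPKM, since levels of different genes can be set side by side only per length. In all 7 pairs the groups did not overlap, as was so for 71.3% of all genes tested, taken singly. The exact two-sided permutation test gave p = 0.1 for each pair, the smallest p that 3 against 3 allows (0.1 after adjustment over the 7 pairs). None could therefore pass 0.05. EIF4EBP2 made up 34.6%, 39.2% and 29.1% of EIF4EBP1 and EIF4EBP2 in the controls and 58.4%, 59.1% and 61.3% in the knockdown. EIF4G3 made up 14.1% ± 0.893 (SD, n = 3) of EIF4G1 and EIF4G3 in the controls and 6.72% ± 0.112 in the knockdown. These were the pairs with the widest differences in share, 25.3 and −7.38 percentage points. In scaled CPM (reads per library size without gene length), the difference of EIF4EBP2 was 11.01 points.

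The other pairs differed by smaller shares. EIF1B rose from 4.84% ± 0.342 (SD, n = 3) to 8.16% ± 0.178 of EIF1 and EIF1B in mean, and EIF4A2 from 34.1% ± 1.11 to 38.0% ± 1.33 of EIF4A1 and EIF4A2, where EIF4A1 and not EIF4A2 passed the test. EIF5A2 made up 10.8% ± 1.87 of its pair with EIF5A in the controls and 13.2% ± 0.688 in the knockdown. That difference of 2.39 points was 1.32 without control replicate 3 and 4.74 in scaled CPM. EIF4E2 made up 94.4% and 96.4% of its pair with EIF4E, and EEF1A2 95.1% and 97.0% of its pair with EEF1A1, with a difference of 1.97 points in RPKM and 3.25 in scaled CPM. Reads shared with pseudogenes were not counted, and RefSeq names 50 for EEF1A1, 13 for EIF4A1, 7 for EIF1, 5 each for EIF4A2 and EIF4E, and 1 to 3 each for EIF4E2, EIF4EBP1, EIF4EBP2, EIF5A and EIF5A2. The shares of all pairs but EIF4G1 and EIF4G3 are therefore uncertain as a balance between paralogs.

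**Figure D4:**
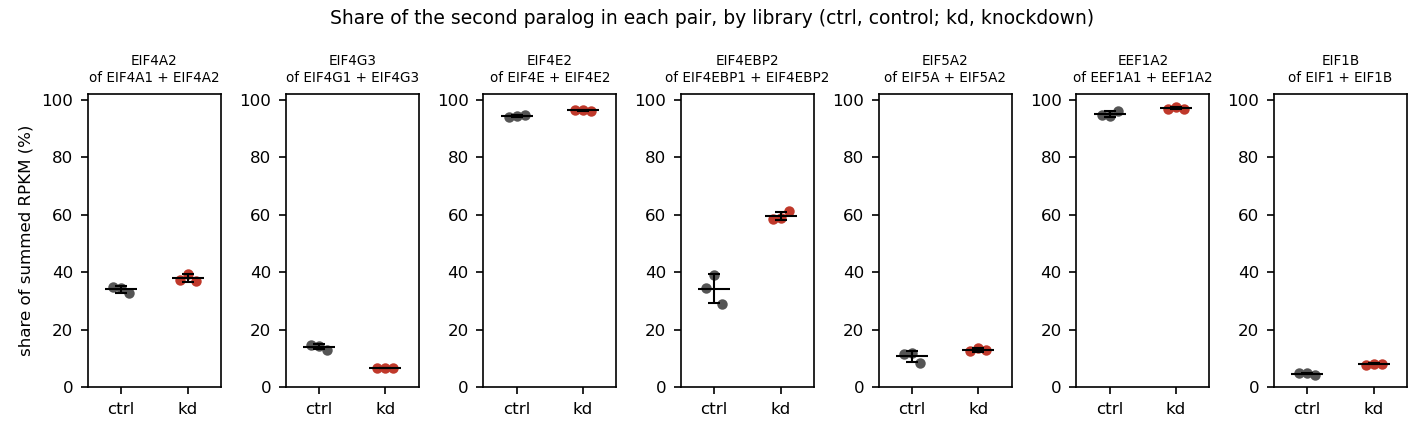
Share of the summed RPKM of each pair taken by the paralog on the first line of each panel title, in each library (points; bars, mean and SD of 3), on an axis from 0 to 100%. EIF4EBP2 goes from 29.1% to 39.2% in the controls to 58.4% to 61.3% in the knockdown, while EIF4G3 goes from 13.1% to 14.7% to between 6.62% and 6.84%.

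Among genes that control translation without being members, the eIF2 stress arm held large changes both ways. Of 49 such genes, all tested, 13 rose, 25 fell and 11 did not pass (77.6% called, beside 67.3% of all genes), with a median log2 fold change of −0.13. The 3 largest rises were PPP1R15A, which directs the phosphatase of eIF2 alpha and is induced by stress (12.6, 12.5 and 14.1 RPKM in the controls and 26.7, 28.2 and 28.1 in the knockdown, 1.06, SE 0.0627, adjusted p = 7.91e-08), EIF2AK3, the eIF2 kinase PERK of the endoplasmic reticulum (mean 4.93 and 8.32 RPKM, 0.74, SE 0.0529, adjusted p = 3.58e-07), and RPS6KB2, an S6 kinase (mean 33.0 and 47.8 RPKM, 0.51, SE 0.0502, adjusted p = 4.25e-06). The 3 largest falls were DOHH, which completes hypusine on eIF5A (7.00, 6.62 and 11.3 RPKM in the controls and 3.55, 2.80 and 2.73 in the knockdown, −1.47, SE 0.199, adjusted p = 5.56e-05), DEPTOR, an inhibitor of mTOR (mean 4.06 and 1.89 RPKM, −1.12, SE 0.0844, adjusted p = 5.41e-07), and DHX29, a helicase for structured leaders (mean 18.1 and 9.23 RPKM, −0.99, SE 0.0616, adjusted p = 1.22e-07).

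The 8 genes around eIF2 phosphorylation all passed, 4 higher and 4 lower, where 67.3% of all genes tested were called. EIF2AK3 rose while the other kinases EIF2AK1, EIF2AK2 and EIF2AK4 fell (−0.18, −0.23 and −0.54). The stress transcription factor ATF4 fell (−0.77, adjusted p = 2.94e-08), whereas DDIT3, one of its targets, rose (0.24), as did PPP1R15B (0.26). In the mTOR and MNK arm 4 of 13 genes rose and 6 fell (76.9% called). The fall of MTOR was lost with library size only and in the DESeq2 Wald test (adjusted p = 0.0741 and 0.0643) and without control replicate 1, control replicate 2, knockdown replicate 1 or knockdown replicate 3 (0.0822 to 0.125). The rise of TSC1 was lost without control replicate 1 or without any 1 of the knockdown libraries (0.0534 to 0.0691). Of the 9 genes that make hypusine and diphthamide, the modified residues of eIF5A and eEF2, 1 rose (DPH3, 0.42) and 6 fell (77.8% called). Of 8 scanning and reinitiation genes 2 rose and 5 fell (87.5% called), and of 5 poly(A)-binding genes 1 rose and 3 fell (80.0%). Of 3 termination genes 1 rose and 1 fell (66.7%), and the 3 partners of EIF4E2 did not pass. The fall of PABPC1, the main poly(A)-binding protein, was lost under DESeq2 size factors, upper-quartile scaling, library size only, a mean log2 CPM of at least 1 and the DESeq2 Wald test, and without control replicate 1, control replicate 2, knockdown replicate 1 or knockdown replicate 3 (adjusted p = 0.0509 to 0.228). The falls of DDX3X and DENR were both lost without control replicate 1, without control replicate 2 or without any 1 of the knockdown libraries (adjusted p = 0.0514 to 0.198), which leaves 3 of the scanning genes lower. Both falls were also lost with library size only (0.102 and 0.0673) and in the DESeq2 Wald test (0.0702 and 0.0553). That of DDX3X was lost as well under DESeq2 size factors (0.066) and a mean log2 CPM of at least 1 (0.0581). GIGYF1, a partner of EIF4E2, passed without control replicate 1 or control replicate 2 (0.0495 and 0.0435), and GIGYF2 without control replicate 3 (0.0183).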

How the data were processed

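Per the submitters' processing notes, GSNAP was the aligner and GRCh38 the genome build. Per the file headers, the authors deposited for each gene the count of uniquely aligned reads and an RPKM adjusted by a size factor. The sources used here do not state the aligner's version, the annotation release, how size factors were made, and whether strand was used. Unique alignment lowers genes with near-identical copies, so members with pseudogenes named in RefSeq, such as EIF4A1 (13), EIF4B (9), EEF1D (8), EEF1G (8) and EIF2S3 (2), have uncertain levels. Pseudogenes were sought only under the member's own symbol. Copies under other names were not looked for, in EEF2KMT as in the other members.

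Gene IDs were matched to RefSeq (GRCh38.p14), which named 27814 of 30727. Groups came from the siRNA label, and replicate numbers only name libraries. filterByExpr kept genes by a minimum count of 10 and a minimum total of 15. The 6 libraries were then scaled by TMM and compared over 15190 genes with edgeR 4.0.16 (glmQLFit, glmQLFTest, two-sided, R 4.3.3) with Benjamini-Hochberg adjustment. SE and 95% intervals are those of the log2 fold change. RPKM was used for levels between genes and equals the count times a gene and a library constant (largest relative residual 6.13e-15 over 11875 genes). EEF1AKMT4, EEF1AKMT4-ECE2 and EIF2S3B were not analysed here. The edgeR fit was tried on simulated counts with planted changes, of which only the larger ones had to be recovered. That trial does not cover changes as small as most of those described here. Exonic overlaps came from GENCODE 29, and promoter windows from RefSeq.

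Members and lists were chosen with earlier results of these data known. By rule, all members were named, chiefly the 2 with the smallest p per role group, the 6 largest rises and falls and the paralog pairs, and in the list of other genes the 3 largest rises and falls. Other genes of that list that are named were chosen after their values were seen. The alternatives were other scalings, filters and tests (DESeq2 1.42.0, limma 3.58.1) and leaving out each library.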

Additional observations from a re-analysis of the deposited data

How the results depend on the processing

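The counts of called members stayed within 1.5 times of 36 under 13 of 14 alternatives: DESeq2 size factors, upper-quartile scaling, library size only, no low-count filter, a mean log2 CPM of at least 1, the DESeq2 Wald test, limma-voom and leaving out each library (30 to 41). The exception was edgeR's glmTreat against a 1.5-fold change, a stricter question, with 4 members called (1 higher, 3 lower) and 2998 genes in all (1606 higher, 1392 lower). For the other 13 alternatives the share of all genes called is not given here. Of the 36 called members, 26 (10 higher, 16 lower) kept their call under all 13. Without a filter EIF5A passed (adjusted p = 0.00497), and EIF2B3 did not pass with library size only (0.0636) or in the DESeq2 Wald test (0.0533). The sign of 14 members changed under at least 1 alternative, in no case where the member was called in that fit or in the reported one, and with values of at most 0.10. In eIF5A, 1 gene was called, but 2 without control replicate 2 or without a filter and 0 without knockdown replicate 2. The differences in paralog share kept their direction in scaled CPM and without each library. No paired analysis was possible because the labels give no replicate numbers. Few counted reads limit EIF3C, EIF3CL, EIF4E1B and EIF4E3, with at most 55 in any library. For EIF3C and EIF3CL, reads shared by both copies were not counted.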
